A study of Mus musculus with 12 samples.

Results

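The effect of losing Foxc1 on the transcriptome of hair follicle stem cells in anagen, the growth phase of the hair cycle, was measured by RNA sequencing of 2 knockout (KO) and 3 wild-type (WT) libraries, 5 of the 12 libraries of the series. The 5 were chosen as the columns of the 1 count table of the anagen stage, and every gene of that table was considered. The cells came from dissociated mouse back skin and were sorted for a green fluorescent histone (K14-H2BGFP), for the surface proteins CD34 and CD49f, and for absence of Sca-1. KO mice carried K14-H2BGFP, K14Cre and Foxc1 fl/fl, and WT mice K14-H2BGFP and Foxc1 fl/fl without Cre, so both groups shared the floxed alleles and the histone reporter. The keratin 14 promoter that drives Cre is active in all basal keratinocytes, so the deletion was not limited to the sorted cells. By title, KO replicates 1 and 2 were taken at postnatal days 29 and 31, and WT replicates 1, 2 and 3 at days 29, 30 and 31, and the title and the age label differed for WT replicate 3, whose age label was 43 days. Both KO libraries and WT replicate 1 were labelled female, and WT replicates 2 and 3 male.

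Foxc1 encodes a forkhead transcription factor that binds DNA through a winged-helix domain and, in the hair follicle, is known from the bulge, the niche where stem cells rest outside of growth. Bulge stem cells leave quiescence briefly at the start of each cycle and return to it while the follicle below them grows. The stem cells and their neighbours hold that rest with secreted signals such as BMP and FGF18, with calcium and NFATC1 signalling, and with adhesion to the basement membrane and to the inner bulge layer.

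The libraries held 29025553 to 54482469 counts over genes. Their TMM factors, edgeR's scaling for library composition, ran from 0.962 to 1.04. Of all 38803 genes in the table, 22214 had a count and 14409 passed the filter on low counts and were tested. The median log2 fold change over them was 0.02. The share of reads placed at more than 1 position, which were not counted for any gene, was 32.8% and 31.1% in KO and 20.1% to 25.8% in WT, and its part in the results was not tested. In 5 of 5 libraries Xist and Ddx3y fitted the labelled sex. The labels do not say that libraries of a group came from separate animals, so p-values measure only the spread between these samples, and sex and genotype overlap enough here that a difference between males and females cannot be told apart from a genotype difference in a gene where WT replicate 1 lies near the KO libraries.

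Foxc1 (ENSMUSG00000050295.4, chromosome 13, 31806633 to 31812476, plus strand) was measured first, as a check of the genotype labels. Its counts were 8 and 8 in KO replicates 1 and 2, and 1886, 3760 and 1476 in WT replicates 1 to 3. As CPM, counts of a gene per 1000000 counts over all genes, this was 0.206 and 0.276 CPM in KO and 34.6, 116 and 47.1 CPM in WT. The log2 fold change, KO over WT as everywhere below and given with its standard error from the model, was -8.19 ± 0.81 (edgeR adjusted p = 0.0522, DESeq2 adjusted p = 1.89e-34). The groups were far apart, and both KO libraries matched their label. Within 1 Mb of Foxc1, 5 further genes were tested. Gmds, the GDP-mannose dehydratase gene that ends close to Foxc1 on the opposite strand (chromosome 13, 31819579 to 32338740), was at 9.54 and 7.79 CPM in KO and 21, 23.6 and 20.7 CPM in WT, lower in both KO libraries than in every WT library (-1.42 ± 0.23, edgeR adjusted p = 0.109, DESeq2 adjusted p = 2.53e-05). The forkhead gene Foxq1 stood at -0.64 and was not called by DESeq2. These neighbours were picked by position and lie outside the naming rule. Of the genes behind the sorting gate, Cd34 was at 277 and 230.3 CPM in KO and 352, 757 and 547 CPM in WT (-1.22 ± 0.35, edgeR adjusted p = 0.314, DESeq2 adjusted p = 0.0356). Itga6, the gene of CD49f, had -0.38, and Ly6a, the gene of Sca-1, stayed between 4.33 and 5.62 CPM in all 5 libraries. Cd34 was thus lower in both KO libraries than in every WT library, even among cells selected for its product. WT replicate 1, of the same sex as the KO libraries, lay nearest to them. With sex as a covariate the log2 fold change was -0.55, so sex and genotype cannot be told apart for this gene.

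With 3 residual degrees of freedom, edgeR's quasi-likelihood test with Benjamini-Hochberg adjustment called 0 genes higher (0%) and 0 lower (0%) at an adjusted p under 0.05. The smallest adjusted p was 0.0522 and was shared by 18 genes, Foxc1 among them. At an unadjusted p under 0.05, 488 genes were higher (3.39%) and 968 lower (6.72%). DESeq2, which was planned as the alternative test, called 91 of 14030 genes higher (0.649%) and 408 lower (2.91%), and limma-voom called 0 in either direction (0%). Genes whose KO and WT libraries did not overlap and whose fold change was at least 2-fold numbered 374 higher (2.6%) and 705 lower (4.89%). Without the fold condition, 2668 genes lay higher in both KO libraries than in every WT library (18.5%) and 1613 lower (11.2%). Large differences were thus mostly decreases and non-overlapping small ones mostly increases. Among the DESeq2 calls that edgeR also tested, the 407 lower genes had a median log2 fold change of -1.82 and 164 of them were at least 4-fold apart, and the 90 higher genes had a median of 1.57 with 19 at least 4-fold apart. In what follows a gene is described by its values in each library, and "called" refers to DESeq2. Counts of called list members are to be read against the 2.91% called lower and 0.649% called higher over all genes. The lists were chosen with earlier results of these data known, so an excess over any such share is not independent evidence about a list. A list with a single call is within 1 gene of the number that these shares give, so only the gene is then described and nothing is read about the list. Since edgeR called none, no list member below passed the main test.

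**Figure D1:**
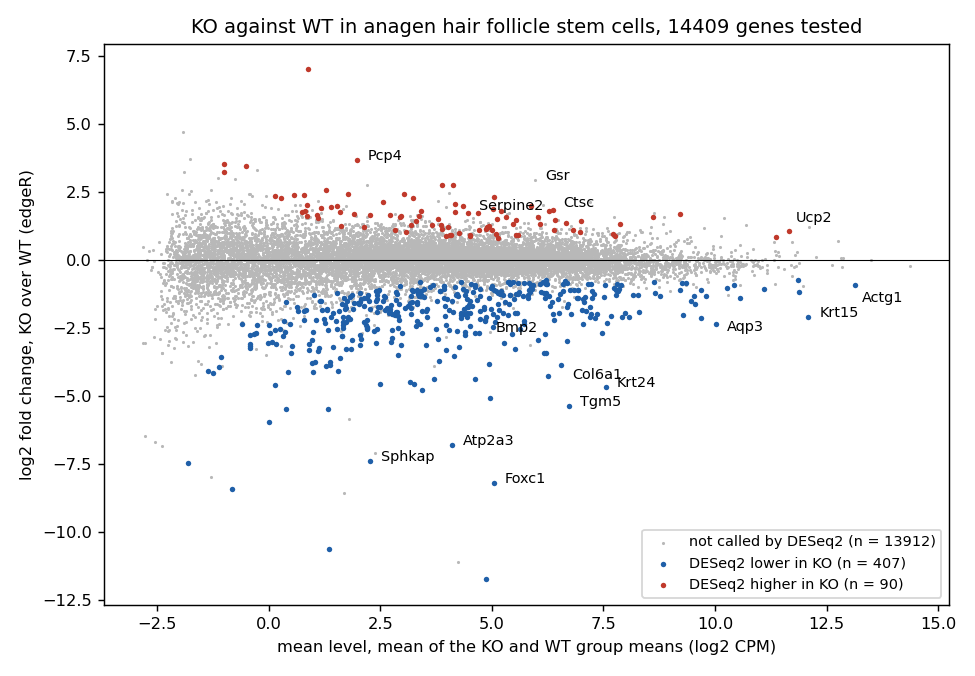
The log2 fold change (KO over WT, edgeR) of each of 14409 genes is plotted against its mean level in log2 CPM. Blue points are the 407 genes that DESeq2 called lower and red points the 90 it called higher, with edgeR calling 0. The calls reach further down than up, and the blue point at the bottom is Ddx3y, a Y-linked gene that follows the sex of the mice.

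The WT libraries were not equally far from the KO libraries. The Pearson correlation of log2 CPM was highest, at 0.975, between KO replicate 1 and WT replicate 1. It was 0.965 between the KO libraries and 0.958 to 0.964 between WT libraries, and the other KO and WT pairs ran from 0.932 to 0.960. KO replicate 1 was thus closer to WT replicate 1 than to KO replicate 2. Of the 407 genes called lower, WT replicate 1, the female library of day 29, had the lowest WT level in 262 (64.4%, against 28.6% of all genes tested), and WT replicate 2 had the highest in 249 (61.2%, against 31.7%). Of the 90 called higher, WT replicate 2 had the lowest WT level in 68 (75.6%, against 38.5%). Without WT replicate 1 edgeR called 14 genes higher and 81 lower, and without WT replicate 2 it called 0 and 1. Leaving out WT replicate 1 set female KO against male WT libraries only, so those calls cannot tell sex from genotype. With sex as a covariate edgeR called 0 and 1, and Foxc1 itself was not called (edgeR adjusted p = 0.0832). In that fit the genotype difference rested on WT replicate 1, the only WT library of the sex of the KO libraries. On the sex chromosomes DESeq2 called 7 of 426 X-linked genes lower and 1 of 5 Y-linked genes lower, beside 2.91% of all genes. Most genes tested are autosomal, so the position of the calls cannot decide whether they follow sex or genotype.

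The named genes of smallest edgeR p were mostly lower in KO, though the higher gene Serpine2 shared the smallest adjusted p of 0.0522. The 20 named lower genes of smallest edgeR p had log2 fold changes from -6.79 to -1.94, edgeR adjusted p from 0.0522 to 0.0586, and all 20 were called by DESeq2. They code for membrane pumps and pores, cross-linking and matrix proteins, cytoskeletal regulators and secreted signals. Promoters, from 250 bases before to 50 after the start in RefSeq (GRCm38.p6), were in the sequence table for 16 of the 20. The forkhead core motif TGTTTAC, searched on both strands, stood in 2 of their 17 promoters (11.8%), those of Col6a1 and Ngef, against 1199 of 32851 promoters in the table (3.65%) and 332 of 13280 promoters of the genes tested (2.5%). It stood in 0 of 7 promoters found for the 10 higher genes named by the same rule. Both matches lay on the strand opposite to the gene, so they read GTAAACA in the gene's direction. A stretch of 100 bases around each is shown because these are the only matches among the named genes of smallest p, in the gene's direction from 5′ to 3′, with the match in capitals. The stretch of Col6a1 runs from 250 to 151 bases before the start at chr10:76726195-76726294, with the match beginning at -211, and that of Ngef from 118 to 19 bases before the start at chr1:87573889-87573988, with the match beginning at -68. Both genes lie on the minus strand. A match describes these letters only.
Col6a1: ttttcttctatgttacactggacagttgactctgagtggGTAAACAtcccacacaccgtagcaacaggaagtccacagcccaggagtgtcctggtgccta
Ngef: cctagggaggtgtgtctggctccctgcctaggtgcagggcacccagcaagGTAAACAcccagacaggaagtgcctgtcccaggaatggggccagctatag

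Atp2a3 encodes SERCA3, a pump that returns calcium from the cytosol to the endoplasmic reticulum (chromosome 11, 72961169 to 72993044). Its level was 0.103 and 0.586 CPM in KO and 34.5, 45.7 and 21.6 CPM in WT, with 4 and 17 counts in KO against 675 to 1882 in WT (-6.79 ± 0.75, edgeR adjusted p = 0.0522, DESeq2 adjusted p = 5.9e-27). After Foxc1 it had the largest log2 fold change of the 20, and its KO libraries were close to background. Tgm5 encodes transglutaminase 5, which cross-links proteins of the cornified envelope (chromosome 2, 121046111 to 121085841), and was at 4.63 and 6.13 CPM in KO and 95.2, 288 and 236 CPM in WT (-5.36 ± 0.59, edgeR adjusted p = 0.0522, DESeq2 adjusted p = 9.41e-27). Ngef, an exchange factor for small GTPases that acts downstream of ephrin receptors (chromosome 1, 87476834 to 87573870), was at 0.669 and 0.276 CPM in KO and 8.64, 8.85 and 15.1 CPM in WT (-4.57 ± 0.54, edgeR adjusted p = 0.0522, DESeq2 adjusted p = 7.88e-17). The 3 genes shared the same layout, with both KO libraries at a small part of the lowest WT library.

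Both collagen VI genes named here, for chains of a microfibrillar collagen that lie near each other on the chromosome, were lower. Col6a1 (chromosome 10, 76708792 to 76726168), the gene with the motif match at -211, was at 15.6 and 10.3 CPM in KO and 120.3, 252 and 155 CPM in WT (-3.86 ± 0.43). That position counts from the RefSeq start, which lies inside the GENCODE span given here. Col6a2 (chromosome 10, 76595762 to 76623630), whose promoters held no match, was at 14.5 and 13.2 CPM in KO and 41.3, 67 and 58.4 CPM in WT (-2.09 ± 0.27). The KO libraries were alike for both genes, and the gap was wider for Col6a1. Vwa2, which encodes the basement membrane protein AMACO, was at 15 and 17.2 CPM in KO and 79.8, 123 and 144 CPM in WT (-2.94 ± 0.31). Aqp3, the water and glycerol channel of basal keratinocytes (chromosome 4, 41092722 to 41098183), was at 388 and 328 CPM in KO and 1289.7, 1821 and 2051 CPM in WT (-2.36 ± 0.30). Duox1, an oxidase that produces hydrogen peroxide, was at 7.72 and 7.17 CPM in KO and 32.7, 30.7 and 51.1 CPM in WT (-2.45 ± 0.29). In each of these the KO libraries lay close together and well under WT replicate 1.

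A further group of the 20 belongs to the cytoskeleton and its membrane contacts. Tns1, which links integrins to actin at focal adhesions, was at 63.2 and 63.8 CPM in KO and 194, 262 and 249 CPM in WT (-1.98 ± 0.23). Myh14, a non-muscle myosin heavy chain, was at 54.7 and 62.1 CPM in KO and 204, 234 and 267 CPM in WT (-2.10 ± 0.22). Cdc42ep1, an effector of the GTPase CDC42, had -1.96, the GTPase activator Arhgap44 -2.22, and the tether between the endoplasmic reticulum and plasma membrane Esyt3 -2.76. The KO values of Tns1 and of Arhgap44 in the 2 libraries were nearly equal, at 63.2 and 63.8 CPM and at 10.8 and 10.6 CPM. Ccdc88c, a regulator of WNT signalling that binds Dishevelled, was at 2.49 and 1.65 CPM in KO and 20.3, 35.1 and 22.3 CPM in WT (-3.73 ± 0.39). Further members were the receptor Mrgprf (-2.91), the carboxypeptidase Cpa4 (-2.71), the ubiquitin ligase Rnf208 (-1.96) and Cdon, a co-receptor for hedgehog ligands (-1.94). Bmp2, also of the 20, is given with the secreted signals.

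**Figure D2:**
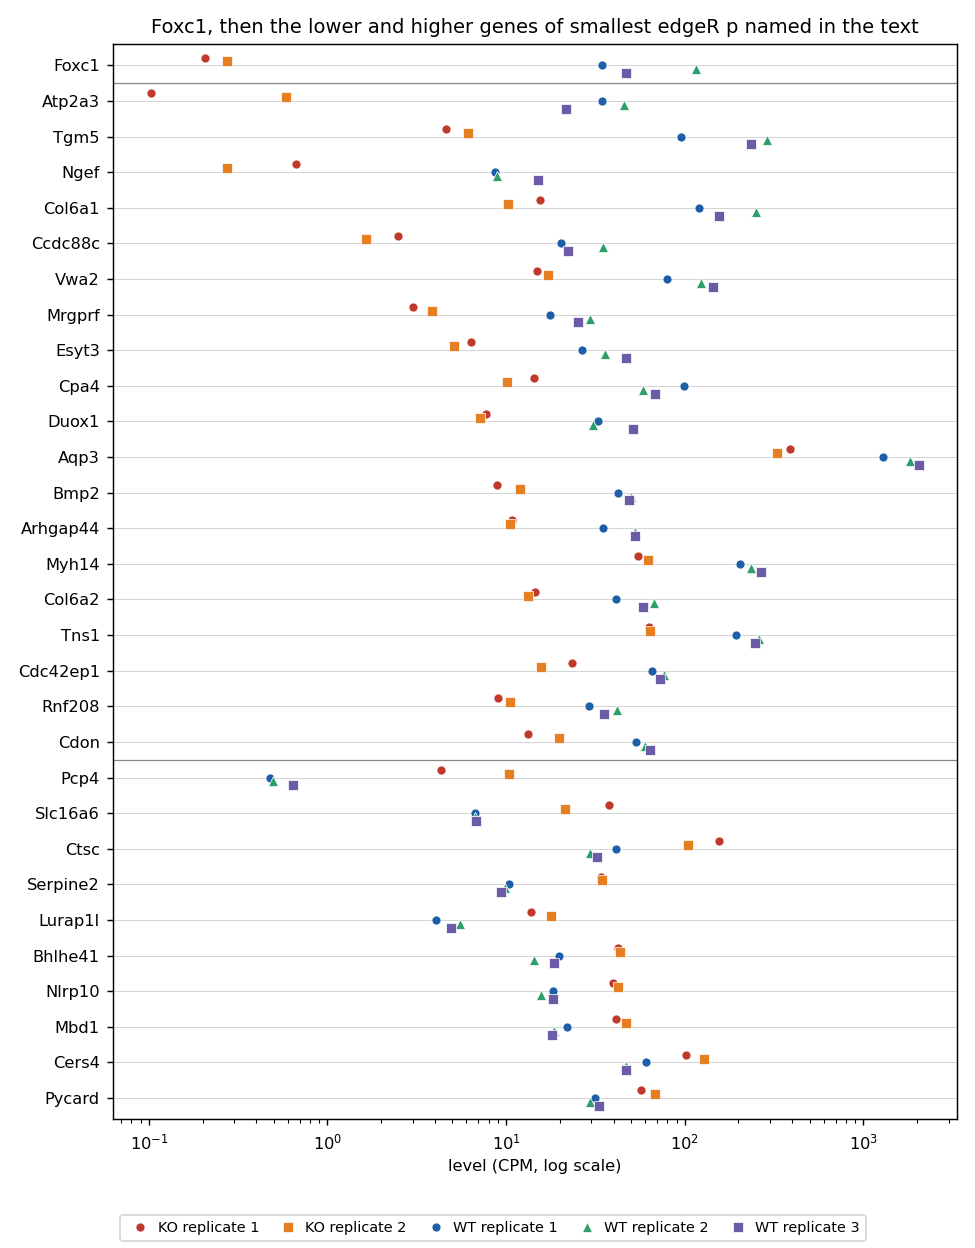
Levels in CPM (log scale) of Foxc1 and of the lower and higher genes of smallest edgeR p that the text names are shown, with 1 mark per library, set slightly apart in height so that equal values can be seen. Red and orange marks are the KO libraries and blue, green and violet marks the WT libraries, and no gene has overlapping groups. Atp2a3 stands out with 0.103 and 0.586 CPM in KO, and Pcp4 has the widest gap among the higher genes.

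Genes best known from neurons were among those furthest below WT. Of 33 tested genes of synapses and neurotransmission, 27 were below 0 and 6 above 0 in log2 fold change (median -0.43). DESeq2 called 7 of them lower, against 2.91% of all genes, and 0 higher, and 8 were lower without overlap and at least 2-fold apart, against 4.89% of all genes. Chat, the enzyme that makes acetylcholine (chromosome 14, 32408203 to 32465989), was at 0.926 and 0.724 CPM in KO and 8.06, 25.1 and 22 CPM in WT (-4.56 ± 0.61, edgeR adjusted p = 0.0653, DESeq2 adjusted p = 1.36e-14). Ache, which breaks acetylcholine down, was at 0.231 and 0.655 CPM in KO and 2.13, 3.89 and 5.69 CPM in WT (-3.24 ± 0.69), so both enzymes of that transmitter lay in the same direction. Shank2, a scaffold of excitatory synapses, was at 0.154 and 0.172 CPM in KO and at 0.99 to 1.67 CPM in WT (-3.10 ± 0.61). The median of the list kept its sign in all 12 alternatives in which it was computed, all drawn from these same libraries.

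Of 18 tested neurotrophic ligands and receptors, DESeq2 called 5 lower and 1 higher. Gfra1, the receptor for GDNF (chromosome 19, 58235604 to 58455909), was at 8.13 and 7.79 CPM in KO and 76.4, 257 and 98.9 CPM in WT (-4.28 ± 0.63, DESeq2 adjusted p = 7.4e-14). Its KO libraries were nearly equal, while the WT libraries spanned more than 3-fold. The ligand Bdnf was at 2.11 and 2.89 CPM in KO and 9.73, 35.6 and 16.5 CPM in WT (-3.14 ± 0.62) and the ligand Nrtn at 2.37 and 3.58 CPM in KO and 7.42, 13 and 13.5 CPM in WT (-2.02 ± 0.40). Gfra3, the receptor for artemin, went the other way, at 4.55 and 4.96 CPM in KO and 0.991, 1.26 and 1.69 CPM in WT (1.77 ± 0.39, DESeq2 adjusted p = 0.00163). Among 55 tested semaphorins, ephrins and guidance receptors, 6 were called lower and 0 higher. They included the netrin receptor Unc5b (-1.15), the SLIT receptor Robo2 (-2.08), Efnb2, the ligand ephrin-B2 (-1.41), and the secreted Sema3c, at 53.4 and 57.2 CPM in KO and 97.6, 95.8 and 96 CPM in WT (-0.89 ± 0.17).

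Ion channels and calcium genes showed the same lean. Of 38 potassium channel genes tested, 26 were negative and 12 positive (median -0.40), and DESeq2 called 4 lower and 1 higher. Kcnma1, the large-conductance channel gated by calcium and voltage, had 3 and 1 counts in KO and 85 to 101 in WT (-5.47 ± 0.72, edgeR adjusted p = 0.0586, DESeq2 adjusted p = 2.2e-07). Kcnd3 had 0 counts in KO and 12 to 31 in WT, which puts its mean WT level at least 13-fold above the level of 3 counts over the KO group. Kcnf1, a modifier subunit, was higher instead, at 35.4 and 26.3 CPM in KO and 6.24, 0.709 and 5.97 CPM in WT (2.75 ± 0.76), and here WT replicate 2 lay apart from the other WT libraries. Of 24 sodium and chloride channel genes, 2 were called lower and 0 higher, with the calcium-activated chloride channel Ano1 (-3.03) among the lower.

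Of 34 calcium pumps, channels and store proteins, 4 were called lower and 0 higher, and of 34 calcium sensors and calcineurin genes, 5 lower and 1 higher. Besides Atp2a3, they included 2 subunits of voltage-gated calcium channels. The pore subunit Cacna1c was at 2.29 and 1.03 CPM in KO and 7.87, 18.6 and 15 CPM in WT (-3.14 ± 0.54), and the auxiliary subunit Cacna2d2 had -2.76. Nfatc1, the calcineurin-dependent factor of quiescent bulge cells, was at 99.3 and 60 CPM in KO and 159.9, 188 and 234 CPM in WT (-1.37 ± 0.30, DESeq2 adjusted p = 0.00264). Rcan1, a calcineurin inhibitor and itself a known target of NFAT factors, was at 134 and 145 CPM in KO and 277, 543 and 662 CPM in WT (-1.92 ± 0.39). Camkk1, a kinase activated by calcium and calmodulin, had -2.13. The calmodulin-binding peptide Pcp4 (chromosome 16, 96467606 to 96525793) stood against them, at 4.35 and 10.4 CPM in KO and 0.477, 0.493 and 0.639 CPM in WT (3.68 ± 0.49, edgeR adjusted p = 0.0586, DESeq2 adjusted p = 5.82e-10), with the 3 WT libraries nearly level.

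Of 30 genes of cyclic nucleotide signalling, 14 were positive and 16 negative, and 2 were called lower and 0 higher. Their summed level lay the other way, at 1241 and 1084 CPM in KO and 822 to 984 CPM in WT. Adcy1, a cyclase stimulated by calcium and calmodulin, was at 1.52 and 2.34 CPM in KO and 21, 119 and 39.7 CPM in WT (-5.06 ± 0.89, DESeq2 adjusted p = 1.94e-12). Sphkap, an anchor for protein kinase A, had 3 and 1 counts in KO and 131 to 684 in WT (-7.37 ± 1.38, DESeq2 adjusted p = 1.4e-05). Both were spread widely in WT, with WT replicate 2 highest. Glial and pigment cells, which also express some of these genes, were checked by markers. The summed level of 7 Schwann cell genes was 30.3 and 33.5 CPM in KO and 32.6 to 59.4 in WT, and that of 8 melanocyte genes 36.1 and 42.5 CPM in KO and 62.7 to 176.5 in WT. No marker of either list was at 0 in all libraries, all 8 melanocyte genes had negative log2 fold changes, and DESeq2 called 1 of them, Mitf, at 2.24 and 3.79 CPM in KO and 9.82, 33.9 and 40.9 CPM in WT. In WT replicate 3 most of the melanocyte sum was Mitf, at 40.9 of 62.7 CPM. There Dct (11.3 CPM, against 13 and 15.7 in KO), Tyrp1, Pmel, Mlana and Kit lay below both KO libraries. Tyr lay above both and Sox10 between them, so the pigment markers as a set did not separate the groups. The part of these markers in the lower neural genes was not tested.

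**Figure D3:**
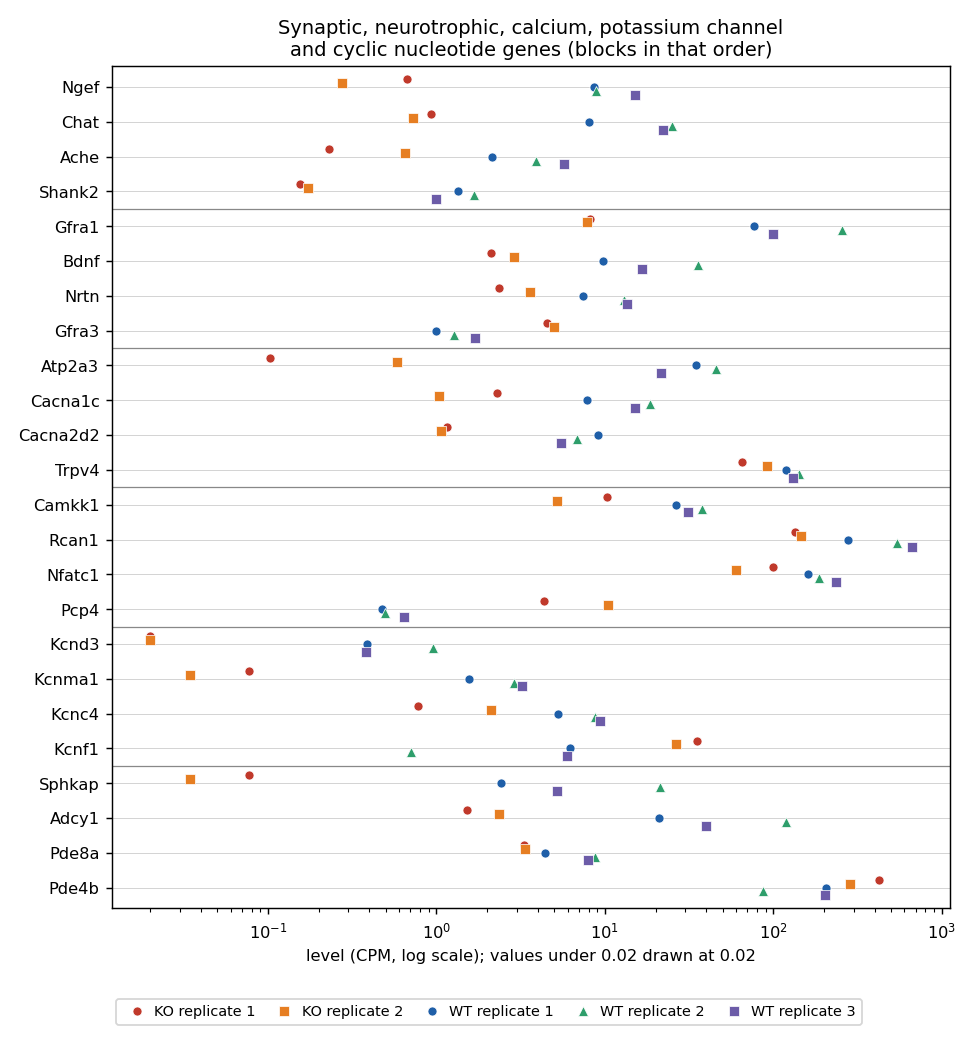
Levels in CPM (log scale) of the named genes of 6 lists are shown with 1 mark per library, in blocks for synaptic, neurotrophic, calcium store and channel, calcium sensor, potassium channel and cyclic nucleotide genes. Most rows have the red and orange KO marks to the left of the WT marks. Gfra3, Pcp4, Kcnf1 and Pde4b have them to the right.

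The matrix lists were mixed in direction and held large decreases. Of 35 collagen genes tested, 6 were called lower and 0 higher. Beyond collagen VI, Col7a1, the anchoring fibril collagen under the epidermis, was at 128 and 166 CPM in KO and 248, 293 and 306 CPM in WT (-1.04 ± 0.23), and the basement membrane collagen Col4a4 had -3.26. Markers of fibroblasts and dermal papilla were present in all libraries, 8 of 12 positive and 4 negative. Their summed level overlapped, at 1353 and 1735 CPM in KO and 831 to 2288 CPM in WT, and their part in the matrix lists was not tested. Of 37 laminin and basement membrane genes, 19 were positive and 18 negative, and 5 were called lower and 0 higher. Lamb3, a chain of laminin 332 that anchors hemidesmosomes, was at 193 and 182 CPM in KO and 398, 452 and 435 CPM in WT (-1.28 ± 0.21, edgeR adjusted p = 0.109, DESeq2 adjusted p = 1.91e-06). Npnt, or nephronectin, the bulge matrix ligand of integrin alpha 8 beta 1, was at 37.3 and 99.6 CPM in KO and 251, 504 and 196 CPM in WT (-2.31 ± 0.59). The gene of that integrin's alpha chain, Itga8, was higher in KO at 4.81 and 3.62 CPM in KO and 0.844, 0.216 and 0.926 CPM in WT (2.57 ± 0.60, DESeq2 adjusted p = 0.00173), the 1 called of 25 integrin genes. Ltbp1, which stores latent TGF beta in matrix, had -2.0, and the fibrillin-binding Adamtsl4 -2.36.

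A few tight junction genes were lower. Of 23 claudin and tight junction genes, 4 were called lower and 0 higher. The barrier claudin Cldn4 was at 53.2 and 71.9 CPM in KO and 146, 110.1 and 137 CPM in WT (-1.16 ± 0.23), Marveld3 had -1.76, and the junction scaffolds Cgnl1 and Tjp3 had -1.65 and -2.09. Of 26 cadherin and desmosome genes, 10 were positive and 16 negative, and the 1 called lower is near the 2.91% of all genes. It was Cdh13, a cadherin anchored by lipid (-2.19). Dsg3, the desmoglein of basal keratinocytes, was at 277 and 143 CPM in KO and 322, 394 and 374 CPM in WT (-0.88 ± 0.32) and was not called (DESeq2 adjusted p = 0.182).

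Keratins and genes of epidermal differentiation were mostly negative. Of 42 keratin genes, 32 were negative and 10 positive (median -0.89), with 5 called lower and 0 higher. Krt15, the bulge keratin (chromosome 11, 100131758 to 100135928), was at 1254 and 2192 CPM in KO and 4641, 9289 and 7078 CPM in WT (-2.12 ± 0.41, edgeR adjusted p = 0.156, DESeq2 adjusted p = 1.13e-05). Krt24 (chromosome 11, 99279959 to 99285262), another type I keratin, was at 14.6 and 15.6 CPM in KO and 167, 659 and 252 CPM in WT (-4.67 ± 0.70, DESeq2 adjusted p = 4.49e-15), with nearly equal KO libraries and a WT replicate 2 well above the others. Krt80 had -2.55 and the inner bulge keratin Krt6a -0.91. Of 38 epidermal differentiation genes, 31 were negative and 7 positive (median -0.77), with 7 called lower and 0 higher. The secreted dermokine, Dmkn, was at 282 and 365 CPM in KO and 1035, 1699 and 1276 CPM in WT (-2.14 ± 0.31, edgeR adjusted p = 0.0859), suprabasin, Sbsn, at 343 and 428 CPM in KO and 827, 1407 and 1130.3 CPM in WT (-1.64 ± 0.30), and the desquamation protease Klk7 at 40.5 and 44.1 CPM in KO and 116, 115 and 80.6 CPM in WT (-1.39 ± 0.23). Tgm7, a further transglutaminase, had -2.34. Of 31 serpin genes, most of them protease inhibitors, 5 were called lower and 2 higher. The lower ones included Serpinb3b (-3.21), Serpinb10 (-1.92) and Serpinb11, at 7.74 and 9.89 CPM in KO and 31.6, 94.1 and 78.6 CPM in WT (-3.05 ± 0.51), and Serpine2 is given with the higher genes. Markers of interfollicular epidermis were mostly negative too, with Sbsn, given above, the most abundant of them in every library. The summed level of 9 such genes was 686.1 and 1383 CPM in KO and 1832 to 2681 in WT, 7 of the 9 were negative and none was at 0 in all libraries. Without overlap 2 of the 9 were lower and 1 higher. The higher one, Ivl, was at 98.7 and 163.1 CPM in KO and 55.3, 17.4 and 98 CPM in WT (1.11 ± 0.63), and was not called. Krt1 and Krt10, which define that layer, overlapped between the groups, at 21.8 and 80.0 CPM against 69.5 to 111.8 for Krt1. The part of these markers in the lower lists was not tested.

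Single ligands and several antagonists among the secreted signals of the niche were lower, while most ligands were not called. Bmp2, a ligand that holds bulge cells in rest (chromosome 2, 133552159 to 133562885), was at 8.95 and 11.9 CPM in KO and 42.1, 50.3 and 48.7 CPM in WT (-2.26 ± 0.23, edgeR adjusted p = 0.0522, DESeq2 adjusted p = 7.63e-14), with WT libraries close together. It was the 1 called of 17 BMP and TGF beta ligands, of which 7 were positive and 10 negative and whose summed level overlapped between the groups. Of 13 BMP antagonists, 4 were positive and 9 negative, and 4 were called lower and 0 higher. Noggin, Nog, was at 1.62 and 0.93 CPM in KO and 6.74, 18 and 16.5 CPM in WT (-3.50 ± 0.56), gremlin 1, Grem1, at 11 and 15.2 CPM in KO and 51.3, 197 and 145 CPM in WT (-3.43 ± 0.61), and follistatin, Fst, which binds activins, at 579 and 299 CPM in KO and 877, 870.3 and 1391 CPM in WT (-1.34 ± 0.38). Sostdc1, an inhibitor of BMP and WNT ligands, had -1.63. Of 17 FGF ligands and receptors, 9 were positive and 8 negative (median 0.033), with 2 called lower and 1 higher. Fgf18, an FGF of the resting bulge, was at 0.283 and 0.31 CPM in KO and 1.47 to 6 CPM in WT (-3.77 ± 0.73, DESeq2 adjusted p = 7.32e-06). Fgf1 had -1.92, and the receptor gene Fgfr3 was higher at 288 and 284 CPM in KO and 163, 114 and 159.8 CPM in WT (0.88 ± 0.22, DESeq2 adjusted p = 0.0289).

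A minority of WNT genes was called, each of them lower. Of 12 WNT ligands tested 4 were positive and 8 negative, and 2 were called lower, Wnt7b, at 10.8 and 11.6 CPM in KO and 24.2, 28.9 and 26.5 CPM in WT (-1.33 ± 0.21, DESeq2 adjusted p = 2.51e-05), and Wnt11 (-1.15). Wnt9a lay the other way, at 17.9 and 59.9 CPM in KO and 15.7, 9.44 and 16.6 CPM in WT (1.39 ± 0.50), and was not called (DESeq2 adjusted p = 0.12). Of 41 receptors and feedback genes 15 were positive and 26 negative, 5 were called lower and 0 higher, and the summed level overlapped between the groups. They included Lgr6, a receptor for R-spondins, at 2.91 and 4.31 CPM in KO and 10.9, 20.8 and 20.6 CPM in WT (-2.37 ± 0.39), the feedback inhibitors Nkd1 (-2.23) and Axin2 (-1.13), and the secreted antagonist Wif1 (-1.61). Of the hedgehog pathway, 2 of 16 genes were called, both lower, the co-receptor Cdon and the decoy receptor Hhip (-3.61). Of the IGF axis, 2 of 16 genes were called lower. Igfbp5, a binding protein for insulin-like growth factors, was at 23.9 and 16.8 CPM in KO and 98.1, 184 and 94.5 CPM in WT (-2.71 ± 0.39, DESeq2 adjusted p = 3.8e-09), and Igfbp3 had -1.11. The interleukin 31 receptor gene Il31ra was at 0.463 and 4.41 CPM in KO and 21.4, 62.3 and 56.7 CPM in WT (-4.39 ± 1.0) and the cytokine Tslp had -2.30. They were the 2 called lower among 79 cytokine and chemokine genes, a share no higher than the 2.91% of all genes. The list as a whole leaned upward, with 52 positive and 27 negative, and without overlap and at least 2-fold apart 9 were higher, against 2.6% of all genes, and 4 lower, against 4.89%.

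Clock and hormone genes made up a smaller group. Of 24 clock genes tested, 16 were negative and 8 positive (median -0.81), with 5 called lower and 1 higher. Npas2, a partner of BMAL1, was at 1.72 and 0.655 CPM in KO and 8.87, 6.66 and 12.6 CPM in WT (-3.05 ± 0.53, DESeq2 adjusted p = 2.02e-07). Rora, an activator of clock transcription, was at 29.4 and 29.8 CPM in KO and 53.6, 75.7 and 69.2 CPM in WT (-1.25 ± 0.22), and the repressors Cry1 and Nr1d1 had -1.39 and -1.13. The repressor Bhlhe41 lay opposite, at 42.2 and 43.3 CPM in KO and 19.9, 14.4 and 18.6 CPM in WT (1.19 ± 0.21, DESeq2 adjusted p = 0.000653). The labels give no hour of collection. Of 21 thyroid and retinoid genes, 2 were called higher and 2 lower. Slc16a10, a transporter of thyroid hormone, was among the lower, at 1.8 and 3.27 CPM in KO and 5.69, 7.37 and 5.62 CPM in WT (-1.39 ± 0.39), and the thyroid receptor gene Thrb had -1.14. Aldh1a2, which makes retinoic acid, was among the higher, at 20.3 and 31.8 CPM in KO and 1.63, 2.34 and 7 CPM in WT (2.75 ± 0.62, DESeq2 adjusted p = 0.000253). Rarb, a retinoic acid receptor, was higher too, at 3.34 and 3.17 CPM in KO and 0.771, 1.14 and 1.25 CPM in WT (1.54 ± 0.42, DESeq2 adjusted p = 0.0227).

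Among the 10 named higher genes of smallest edgeR p, log2 fold changes ran from 0.91 to 3.68 and edgeR adjusted p from 0.0522 to 0.156, and DESeq2 called all 10. Serpine2, an inhibitor of thrombin and related proteases (chromosome 1, 79794197 to 79861180), was at 34 and 34.5 CPM in KO and 10.4, 9.93 and 9.33 CPM in WT (1.70 ± 0.19, edgeR adjusted p = 0.0522, DESeq2 adjusted p = 1.2e-09), with each group within a narrow range. Ctsc, the lysosomal protease that activates granule proteases (chromosome 7, 88278085 to 88310888), was at 155 and 104 CPM in KO and 41.5, 29.6 and 32.5 CPM in WT (1.82 ± 0.24, edgeR adjusted p = 0.0586, DESeq2 adjusted p = 7.47e-07). The transporter gene Slc16a6 was at 37.5 and 21.4 CPM in KO and 6.68, 6.66 and 6.77 CPM in WT (2.05 ± 0.28), with the WT libraries nearly equal. Nlrp10 and Pycard, an NLR protein and the ASC adaptor of inflammasomes, were at 39.7 and 42.2 CPM in KO and 18.4, 15.8 and 18.3 CPM in WT (1.14 ± 0.18) and at 56.7 and 68.4 CPM in KO and 31.5, 29.4 and 32.9 CPM in WT (0.91 ± 0.18). Cers4, a ceramide synthase, had 1.08, Mbd1, which binds methylated DNA, 1.08, and Lurap1l 1.63.

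Interferon response and antigen presentation genes were higher by small amounts in most members. Of 40 interferon response genes 33 were positive and 7 negative (median 0.42), 19 lay higher in both KO libraries than in every WT library and 0 lower. DESeq2 called 3 higher and 0 lower. Irf7, a regulator of interferon genes, was at 37 and 49.9 CPM in KO and 22.4, 11.3 and 18.3 CPM in WT (1.23 ± 0.30, DESeq2 adjusted p = 0.0232), Isg15 at 5.79 and 6.79 CPM in KO and 2.75, 2 and 2.91 CPM in WT (1.21 ± 0.34), and the galectin Lgals9 at 72 and 56.6 CPM in KO and 31.7, 14.9 and 25.7 CPM in WT (1.33 ± 0.31). Of 21 antigen presentation genes 20 were positive and 1 negative (median 0.49), and 14 lay higher in both KO libraries and 0 lower, with 0 called. B2m, the light chain of MHC class I, was at 706 and 682 CPM in KO and 370.3, 401 and 484 CPM in WT (0.64 ± 0.22, DESeq2 adjusted p = 0.156), the peptide transporter Tap1 had 0.83 and the immunoproteasome subunit Psmb9 0.81. Across all genes 18.5% lay higher in this way, so both lists exceeded the background share. The excess was not limited to these lists, since 37 of 77 respiratory chain genes and 12 of 34 proteasome genes also lay higher in both KO libraries, by smaller amounts. The chemokine Cxcl10, the 1 called higher of the cytokine list, was at 28.9 and 51.9 CPM in KO and 18.3, 8.42 and 7.47 CPM in WT (1.73 ± 0.45, DESeq2 adjusted p = 0.00996). Of 12 immune cell markers 10 overlapped between the groups. Cd52 lay higher in KO, at 0.9 and 1.9 CPM against 0.447 to 0.606 in WT, and Cd3g lower, at 0.129 and 0.0345 CPM against 0.319 to 0.463 in WT. The summed level of the 12 was 88.5 and 294.8 CPM in KO and 40.5 to 204.7 in WT, 9 of 12 were positive, and Ptprc, the pan-leukocyte gene CD45, was at 1.44 and 2.21 CPM in KO and 0.0925 to 1.53 in WT. The part of immune cells in these lists was not tested.

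Lipid, redox and sugar genes gave calls in both directions. Of 36 fatty acid genes, 4 were called higher and 1 lower. Fads3, a desaturase homologue, was at 49.6 and 54.5 CPM in KO and 26.4, 12.7 and 13.3 CPM in WT (1.48 ± 0.33), the desaturase gene Scd2 at 103 and 92.8 CPM in KO and 51, 34.8 and 26 CPM in WT (1.30 ± 0.28), and the mitochondrial carnitine transferase Cpt2 had 1.27. Fads6 was the gene called lower (-2.58). Insig2, a brake on sterol synthesis, was the 1 called of 30 sterol genes, at 266 and 297 CPM in KO and 139.6, 106 and 162 CPM in WT (0.96 ± 0.23, DESeq2 adjusted p = 0.0183). Gsr, or glutathione reductase, was at 102 and 120.4 CPM in KO and 26, 11.3 and 3.32 CPM in WT (2.94 ± 0.72), and the WT libraries differed so much among themselves that it was not called (DESeq2 adjusted p = 0.0621). The heme-degrading enzyme Hmox1 was lower at 310.5 and 205 CPM in KO and 523, 632 and 671 CPM in WT (-1.33 ± 0.27, DESeq2 adjusted p = 0.000768). Hk2, hexokinase 2, was at 118 and 94 CPM in KO and 222, 279 and 268 CPM in WT (-1.36 ± 0.23, DESeq2 adjusted p = 3.75e-05), the 1 called of 26 glycolysis and glucose uptake genes, and the glucose transporter Slc2a1 had -0.70 and was not called. Pmaip1, the BH3-only protein NOXA, was the 1 called of 25 p53 target genes, at 126 and 171 CPM in KO and 68.8, 37.9 and 58.4 CPM in WT (1.34 ± 0.28, DESeq2 adjusted p = 0.00358). The MAPK phosphatase Dusp4 was also higher, at 34.3 and 69.1 CPM in KO and 15.1, 8.23 and 17.1 CPM in WT (1.85 ± 0.39, DESeq2 adjusted p = 0.00121).

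Large absolute differences, in CPM without regard to fold, named abundant genes, whose CPM also depends on transcript length. Downward these were Krt15, the cytoplasmic actins Actg1, at 6431 and 6408 CPM in KO and 12596, 12106 and 9942 CPM in WT (-0.94 ± 0.25), and Actb (-1.06), the chaperones Hspa8 (-0.96) and Hspb1 (-1.20), the matricellular Cyr61 (-0.88), stratifin, Sfn (-0.74), and Aqp3. Upward they were led by Gja1, the gap junction protein connexin 43, at 5551 and 6887 CPM in KO and 3294, 1404 and 2933 CPM in WT (1.20 ± 0.37, DESeq2 adjusted p = 0.0543). Ucp2, a mitochondrial carrier, was at 3956 and 4909.7 CPM in KO and 2394, 1542 and 2049.9 CPM in WT (1.06 ± 0.26, DESeq2 adjusted p = 0.0096). Timp3, an inhibitor of matrix proteases, had 1.54 with WT replicate 2 far below the other WT libraries, and the amino acid transporter genes Slc3a2 and Slc7a8 had 0.88 and 1.17. The heat-inducible chaperone genes Hspa1b, at 381 and 665 CPM in KO and 753, 1365 and 1617 CPM in WT (-1.35 ± 0.41), and Hsp90aa1, at 784 and 909 CPM in KO and 1432, 1915 and 1547 CPM in WT (-1.04 ± 0.25), were with Hspb1 the 3 called lower among 31 genes of heat shock and the unfolded protein response. Krt6a, Hspa1b, Serpinb3b and the actins have near-identical copies that reads may fail to tell apart, so their values are less certain.

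Stem cell markers were lower in part, and division genes varied widely between libraries of both groups. Of 22 stem cell markers 7 were positive and 15 negative (median -0.62), and 6 were called lower, against 2.91% of all genes, and 0 higher. In 12 of the 22 both KO libraries lay below every WT library, against 11.2% of all genes, and 0 lay above. Their summed level was 9094.3 and 10708.5 CPM in KO and 14051.5 to 21619.6 in WT, without overlap. All 26 mitosis genes were positive, with a median of 1.14, and 0 were called. Their summed level was 1020.5 and 277.5 CPM in KO replicates 1 and 2, and 530.3, 194.3 and 127.2 CPM in WT replicates 1 to 3. KO replicate 2 thus lay within the WT range, and without KO replicate 1 the median was -0.14. By title day, KO lay above WT on day 29 (1020.5 against 530.3) and on day 31 (277.5 against 127.2). The age label of the WT library of day 31 was 43 days. Housekeeping lists differed by small amounts. Of 77 respiratory chain genes 67 were positive (median 0.14), 37 of them without overlap, and of 34 proteasome genes 31 (median 0.17), 12 without overlap, against 18.5% of all genes, with 0 called in each, and of 81 ribosomal protein genes 78 were negative (median -0.18), a sign that flipped with the day as a block and without WT replicate 2.

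**Figure D4:**
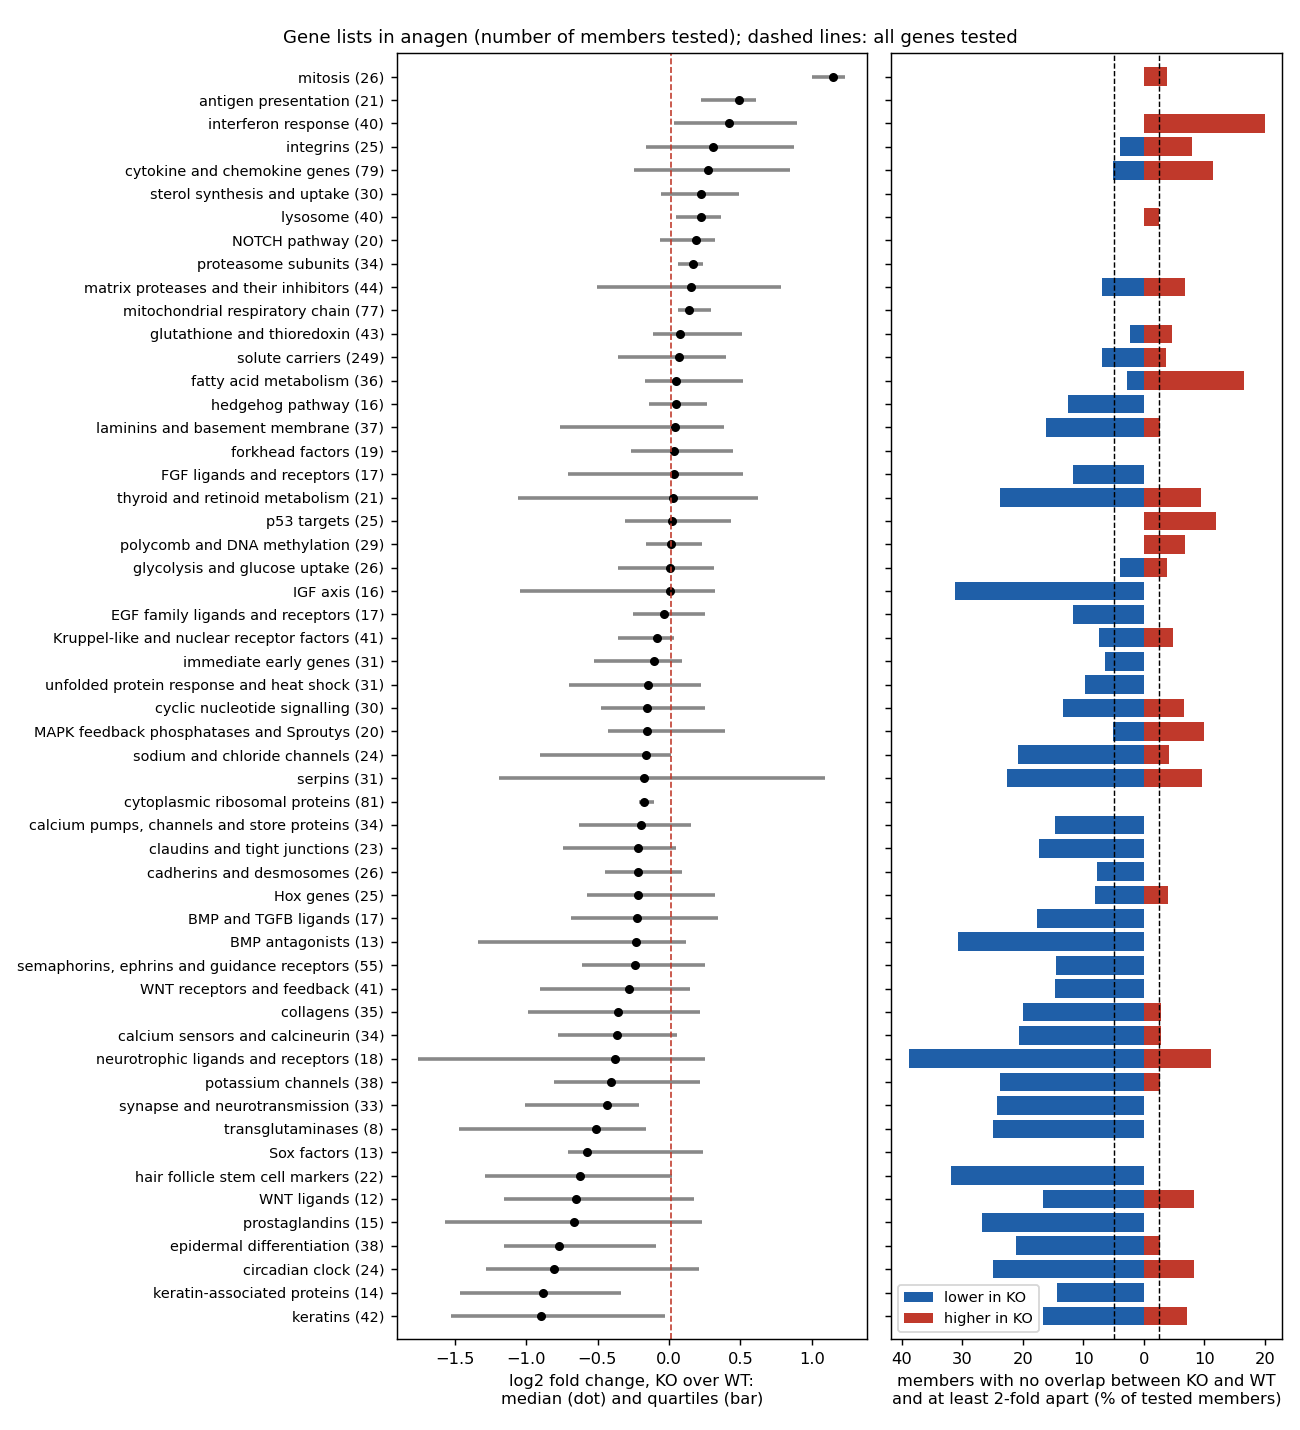
For each gene list with at least 8 tested members, the left panel gives the median (dot) and quartiles (bar) of the log2 fold change, KO over WT, and the right panel the percent of members with no overlap between the groups and at least 2-fold apart, lower in blue and higher in red. Dashed lines mark the same values over all 14409 genes, a median of 0.02 and shares of 4.89% lower and 2.6% higher. Keratins and epidermal differentiation lie near the bottom with medians of -0.89 and -0.77, and synapse, neurotrophic and potassium channel lists exceed the lower line.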

How the data were processed

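RNA was measured by poly(A) sequencing with a directional kit in 5 libraries of sorted anagen stem cells. The deposited values are raw counts per gene, which the authors made with TopHat2 and HTSeq on mm10, per the submitters' processing notes. Versions and the strand option are not given in the sources used here, so antisense and overlapping genes may share reads. The 5 tally lines were left out. Counts were tested with edgeR 4.0.16 in R 4.3.3 (TMM, filterByExpr with minimum count 10 and minimum total 15, robust quasi-likelihood F-test on KO against WT, Benjamini-Hochberg over 14409 genes, threshold 0.05), a procedure first tested on simulated data. DESeq2 1.42.0 and limma 3.58.1 (voom) were alternatives, beside other factors, filters, a sex covariate, a block by title day and each library left out. CPM is counts per 1000000 of a library's total over genes. No 2 libraries were copies of each other.

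A total of 68 gene lists was described by counts and medians, with no set test. The lists and members were chosen with earlier results of these data known. Named genes were, leaving out Foxc1, sex-linked and provisional names, the 20 lower and 10 higher of smallest p with 5 CPM in 1 group, the 8 per direction of largest CPM difference without overlap, the 10 per direction of largest fold change among those with unadjusted p under 0.05 and no overlap, genes with at most 3 counts in 1 group and 1 CPM in every library of the other (0 found), up to 4 members per list by p, and the gate genes. A few genes that the rule names are not reported here. Positions are from GENCODE M21 (GRCm38, the assembly of mm10), and promoter sequences from RefSeq.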

Additional observations from a re-analysis of the deposited data

Results flagged for a closer look

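The share of reads placed at more than 1 position in the genome, a tally kept beside the gene counts and used in no comparison, was 32.8% in KO replicate 1 and 31.1% in KO replicate 2, above the 20.1% to 25.8% of the WT libraries. Such reads are absent from every gene's count, and what they hold was not tested.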

How the results depend on the processing

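The number of calls depended on the test. The counts called higher and lower were 91 and 408 by DESeq2, 57 and 249 by edgeR without a filter on low counts, 46 and 207 with the title day as a replicate block, and 0 and 1 with sex as a covariate. They stayed at 0 and 0 with limma-voom, RLE factors, upper quartile factors, a filter of 1 CPM and no robust option. Leaving out 1 library in turn gave edgeR counts of 0 to 14 higher and 0 to 81 lower, with 14 and 81 without WT replicate 1. DESeq2 on all 5 libraries was planned, and repeating it with 1 library left out was added after seeing the data. In these repeats DESeq2 counts of higher genes ran from 30 (without KO replicate 2) to 242 (without WT replicate 1). They were 48, 36 and 139 on leaving out KO replicate 1, WT replicate 2 or WT replicate 3. The counts of lower genes ran from 213 (without WT replicate 2) to 393. Leaving out a KO replicate left a single KO library, so those counts are descriptive only. Without WT replicate 1 all KO libraries were female and all WT libraries male, so its counts cannot tell sex from genotype. Of the calls under the block, 25 of 46 higher and 184 of 207 lower were also called by DESeq2. The title days share only a number, since just 2 KO and WT pairs exist and those of day 31 differ in age label. Under the block WT replicate 2, alone on its day, added nothing to the genotype difference. Fewer residual degrees of freedom were left than the 3 of the main fit, so the block is not a stronger test. Deviations from the group means correlated at 0.41 (day 29) and 0.36 (day 31).

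Foxc1 passed under DESeq2 (-8.22, adjusted p = 1.89e-34), under the block (-7.47, edgeR adjusted p = 0.000169), without WT replicate 1 (-8.50, edgeR adjusted p = 0.00856) and without replicate 2 of WT (-7.49, edgeR adjusted p = 0.0299), and its leave-one-out values ran from -8.50 to -7.49. The limits given above for the block and for leaving out WT replicate 1 hold for these values too. The log2 fold change of Ly6a, near 0, changed sign under DESeq2 (-0.0017), RLE factors (-0.0035), no filter (-0.0098) and the block (-0.0070), and ran from -0.089 to 0.11 with 1 library left out. Depth does not limit the abundant genes, but for genes with few counts in KO the size of the fold is uncertain.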

Other observations

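Outside the lists described above, prostaglandin and growth factor genes held single large decreases. Ptges, which makes prostaglandin E2, was at 14.3 and 6.75 CPM in KO and 40, 103 and 22.6 CPM in WT (-2.48 ± 0.72, DESeq2 adjusted p = 0.00278), the 1 called of 15 prostaglandin genes. Ereg, an EGF family ligand, was at 0.977 and 2.07 CPM in KO and 7.43, 12.7 and 3.13 CPM in WT (-2.45 ± 0.68, DESeq2 adjusted p = 0.00356). The family's ligand gene Nrg1 was at 419 and 63.9 CPM in KO and 101, 23.1 and 31.4 CPM in WT, so KO replicate 1 alone stood far above the others, and it was not called. Of 25 Hox genes the 1 called, a share near the 2.91% called lower over all genes, was Hoxa7 (-2.01 ± 0.58, DESeq2 adjusted p = 0.00713), and Dnmt3l, a cofactor of DNA methyltransferases, was higher at 2.7 and 4.44 CPM in KO and 0.734, 0.617 and 1.37 CPM in WT (1.89 ± 0.50, DESeq2 adjusted p = 0.0168). Further genes named for their fold change were lower for Ednra, the endothelin A receptor, at 0.566 and 1.1 CPM in KO and 5.18, 31.1 and 15.4 CPM in WT (-4.48 ± 0.88), and Myoc, or myocilin, at 1.16 and 0.413 CPM in KO and 7.53, 16.7 and 38.8 CPM in WT (-4.79 ± 0.89). Higher were Cntn2, a neural adhesion protein, at 60.1 and 51.5 CPM in KO and 6.5, 5.37 and 20.2 CPM in WT (2.30 ± 0.56), Alpl, an alkaline phosphatase (2.26), and Ppp1r3b, a glycogen-targeting phosphatase subunit (1.99). DESeq2 called these 5.

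Some genes were at or near 0 in 1 group. They lie outside the naming rule, except Kcnd3, and were chosen after their values were seen. Of the genes tested, 7 had 0 counts in both KO libraries and 0 genes had 0 counts in all WT libraries. The predicted gene Gm6969 on chromosome 12 had 0 counts in KO and 262, 232 and 104 counts in WT replicates 1 to 3, at least 115-fold higher in WT than 3 counts over the KO group (edgeR adjusted p = 0.0522, DESeq2 adjusted p = 1.95e-08). Chst13, a chondroitin sulfotransferase gene, had 0 counts in KO and 24 to 68 in WT, at least 25.7-fold higher. Srd5a2, which encodes a steroid 5-alpha reductase, was the reverse, with 37 and 186 counts in KO and 3, 0 and 0 in WT. Its ratio of KO to WT was 129, with an exact 95% counting interval of 43.7 to 632 (edgeR adjusted p = 0.131, DESeq2 adjusted p = 1.57e-06). The interval covers counting error only, and the KO libraries differed from each other, at 0.952 and 6.41 CPM.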
